A study of Mus musculus with 5 samples.

Results

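The cells described here are neutrophils of tibialis anterior, a hind-limb muscle of the mouse, and they number 132 of 50460 retained cells. A cell was taken as a neutrophil when it held at least 10 UMIs (unique molecular identifiers, each counting 1 captured transcript) of S100a8 and S100a9 together, at least 1 UMI of 2 or more of Retnlg, Csf3r, Cxcr2, Mmp9 and Il1r2, and at most 2 UMIs of Cdh5, Pdgfra and C1qa together. The choice thus rests on the measured values, and values of its genes below are a description, with no test.

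Muscle of female C57BL/6 mice aged 26 months was profiled by droplet sequencing (10x Genomics Chromium), in 2 libraries from frail mice and 3 from controls. Frail mice had a frailty index of at least 0.18 on a list of accumulated deficits, and controls had a lower one. All mice were of the same strain, sex and age, with no transgene or treatment named, and the series text describes them as separate animals. The labels describe both an enzymatic digestion to whole cells and a lysis with sorting of nuclei, and which of them was used is not settled by the sources used here.

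Neutrophils are short-lived white blood cells that leave the bone marrow fully formed, follow chemokines into tissue and kill microbes with granule proteins and oxidants. Their granules are filled in order during maturation, so that transcripts of primary and secondary granule proteins belong mainly to bone marrow precursors. Circulating cells keep transcripts of S100a8 and S100a9, of chemokine receptors and of cytokines such as interleukin 1 beta. In muscle they are among the first cells to arrive after injury and are few at rest.

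The series as a whole holds 56922 deposited barcodes with 68170531 to 90942121 UMIs per library. Retained cells had a median of 5353 to 7005 UMIs, and 17 to 35 barcodes were shared between any pair of libraries, none of them a neutrophil in both. The neutrophils were shallower: their median was 3157 and 2633 UMIs in frail 1 and 2, and 2745, 3503.5 and 2875 UMIs in control 1 to 3, against 5359 to 7028 for all other retained cells. They had a median of 1107 and 1114 detected genes in frail libraries, and 1014, 1198 and 1136 in controls. The groups overlapped in both medians (exact permutation test, two-sided, with 10 possible groupings of the libraries, p = 0.70 for UMIs and 1.00 for genes; the smallest p this design allows is 0.10). All later statements on a group rest on the sum of 265996 and 56335 neutrophil UMIs in frail 1 and 2, and of 78055, 100162 and 88073 in control 1 to 3, so that the level of a rare transcript is coarse.

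Few cells lay near the S100 threshold: 1 neutrophil held fewer than 20 S100a8 and S100a9 UMIs, and 2 cells with 5 to 9 met all other conditions. The median was 500 and 244 UMIs per cell in the frail pair, against 522, 733 and 384 in controls. Of 161 cells past the S100 threshold, 7 lacked the further genes and 22 exceeded the limit on Cdh5, Pdgfra and C1qa. S100a8 (chromosome 3, 90668978 to 90670035 in GRCm38) and S100a9 (chromosome 3, 90692632 to 90695721) encode the 2 subunits of calprotectin, a calcium- and zinc-binding protein of neutrophil cytosol. Together they made up 15.6% and 6.21% of neutrophil UMIs in the frail pair and 20.5%, 13.8% and 9.72% in control mice. Of the further genes of the rule, the resistin-like hormone Retnlg was found in 97.0% of neutrophils, the granulocyte colony-stimulating factor receptor Csf3r in 96.2%, the chemokine receptor Cxcr2 in 90.9%, the gelatinase Mmp9 in 80.3% and the decoy interleukin 1 receptor Il1r2 in 69.7%.

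The label was set against markers that the rule did not use. All 12 genes of a further neutrophil list, among them G0s2, Mxd1, Slpi and Msrb1, had UMIs, and they summed to 11331 and 12958 CPM (counts of a gene scaled to the summed neutrophil UMIs of a library, without further normalization) in the frail pair and to 16245, 11112 and 7528 in controls. All 12 also had UMIs in macrophages, monocytes and endothelial cells, where they summed to 186 to 283, 482 to 943 and 99.0 to 126 CPM. In the neutrophils, the 8 macrophage markers summed to 82.7 and 107 CPM in the frail pair and to 179, 79.9 and 56.8 in controls, with Folr2 at 0, and the 5 eosinophil markers to 3.76 in frail 1 and 0 elsewhere. Markers of other cells were not all near 0. The 6 monocyte markers summed to 714 and 88.8 CPM in the frail pair and to 615, 230 and 204 in controls. Endothelial markers summed to 481 and 976 in the frail pair and to 551, 639 and 1147 in controls. Schwann cell markers summed to 560 and 302 in the frail pair and to 218, 79.9 and 125 in controls. Mural cell markers, which include Acta2 and Myh11, summed to 1391 and 7633 CPM in the frail pair and to 282, 170 and 295 in controls, and myofibre markers to 86.5 and 88.8 in the frail pair and to 782, 3205 and 329 in controls. Fibro-adipogenic markers summed to 6688 and 1473 CPM in the frail pair and to 1051, 10064 and 7482 in controls, dendritic cell markers were highest in frail 1 at 1180, and T cell and natural killer markers (647) and keratinocyte markers (783) in control 3, where other libraries had at most 17.8 and 0. Their part in the results below was not tested beyond leaving out cells above 10000 UMIs or those with the highest doublet scores. Without cells above 10000 UMIs, fibro-adipogenic markers still summed to 2804 and 1667 CPM in the frail pair and to 1051, 1576 and 5045 in controls. A gene at 0 in all neutrophils may still reach 5.10 CPM, since 3 UMIs among 588621 would not differ from none by counting error.

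Calprotectin UMIs were also found in cells of other types, at a share that differed between libraries. Endothelial cells, which do not make calprotectin at rest, held at least 1 S100a8 or S100a9 UMI in 19.1% and 1.22% of cells in frail 1 and 2, and in 6.55%, 7.87% and 6.62% in control 1 to 3, at a median depth of 3947 to 5143 UMIs. The frail 1 library, which had the most neutrophils, thus also had the highest share of endothelial cells with such a UMI, and frail 2 the lowest.

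**Figure D1:**
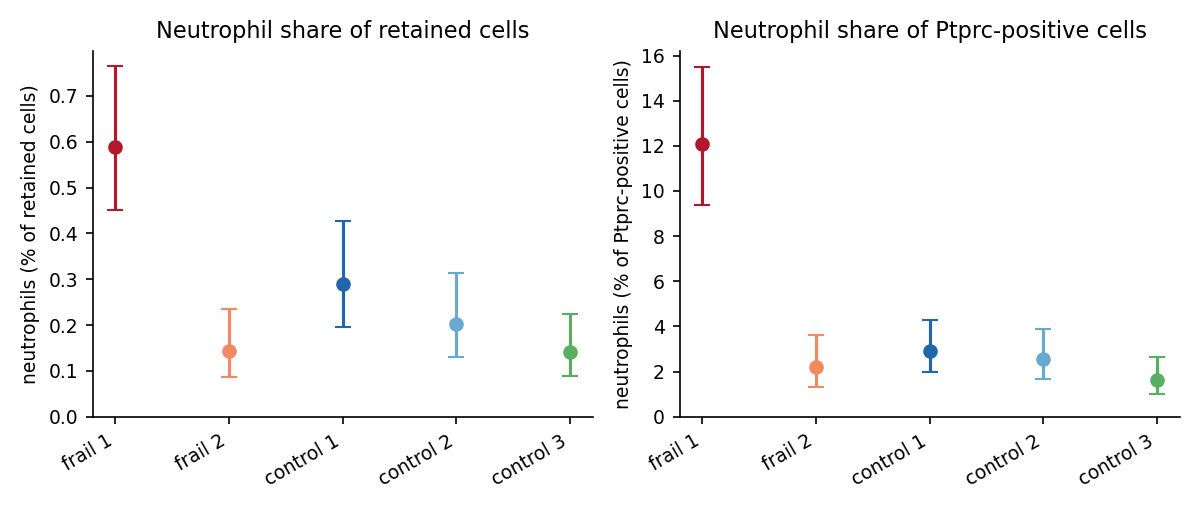
Neutrophils as a percentage of retained cells (left) and of cells with a Ptprc UMI (right) in each library, with 95% Wilson intervals that cover counting error only. Frail 1 stands at 0.588% and 12.1%, above the other 4 libraries, and frail 2 lies within the range of the controls in both panels.

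How many neutrophils the muscle held was asked first. They made up 0.588% of retained cells in frail 1 (55 of 9351) and 0.143% in frail 2 (15 of 10517), against 0.289% (25 of 8650), 0.203% (20 of 9854) and 0.141% (17 of 12088) in control 1 to 3. Frail 1 stood above the other 4 libraries, with a 95% Wilson interval of 0.452% to 0.765%, while the interval of frail 2 (0.0865% to 0.235%) overlapped those of all controls. The group means were 0.365% ± 0.315 in the frail pair and 0.211% ± 0.0745 in control mice (SD, n = 2 and 3; exact two-sided permutation test, p = 0.60). The difference of 0.155 percentage points became −0.0682 without frail 1.

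A like order was seen among cells with a UMI of Ptprc, the gene of the pan-leukocyte antigen CD45. Neutrophils were 12.1% (53 of 438) and 2.19% (14 of 640) of these cells in the frail pair. In controls they were 2.92% (25 of 855), 2.55% (20 of 784) and 1.65% (16 of 971). Frail 1 thus also had the fewest Ptprc-positive cells. The group means were 7.14% ± 7.01 and 2.37% ± 0.656 (SD, n = 2 and 3, exact two-sided permutation test, p = 0.30). With frail 1 left out, the difference of 4.77 points became −0.187. Over the 5 single values tested this way (these 2 shares, the granule share below and the 2 medians above), each Benjamini-Hochberg adjusted p was 1.00. Fewer cells of a type and a lower capture of them by the preparation cannot be told apart in such shares.

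After ribosomal and mitochondrial genes and those of the rule were set aside, the 10 highest transcripts were Malat1, the thymosin Tmsb4x, the ferritin heavy chain Fth1, Il1b, the calcium-binding S100a6, Actb, S100a11, the granule proteoglycan Srgn, the signalling adaptor Tyrobp and Fos. Il1b (chromosome 2, 129364570 to 129371139), which encodes interleukin 1 beta, a fever-inducing cytokine, stood at 9147 and 10012 CPM in the frail pair and at 10582, 6100 and 4644 in controls. It was found in 99.2% of neutrophils, and in 2.74% of endothelial cells. Macrophages reached 165 to 496 CPM and monocytes 788 to 2635. Nearly every neutrophil thus carried Il1b, and the 2 groups overlapped (log2 fold change frail over control 0.39, SE 0.48; edgeR adjusted p = 0.998).

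Maturity was read from the granule transcripts. Of the primary granule genes, Mpo, Elane, Ctsg, Ms4a3 and Bpi had 0 UMIs, and Prtn3 had 1 UMI in each of frail 2 and control 1. Of the cell cycle genes Mki67, Ccna2, Ccnb1 and Cdk1 had none, while Top2a and Birc5 had UMIs. The list of 6 summed to 3.76 and 0 CPM in the frail pair and to 0, 9.98 and 11.4 in controls. Some secondary granule transcripts were present in a few cells only. At least 1 UMI of Ltf (lactoferrin), Camp (the cathelicidin peptide) or Ngp (neutrophilic granule protein) was found in 18 of 132 neutrophils. Lcn2 and Wfdc21 of the same list were found in most cells and are given below.

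These 18 cells were spread as 11 of 55 neutrophils in frail 1, 0 of 15 in frail 2, and 3 of 25 (12.0%), 1 of 20 (5.00%) and 3 of 17 (17.6%) in control 1 to 3. The share did not separate the groups (exact two-sided permutation test, p = 0.90). It was 0.0341% to 1.21% in endothelial cells and 0% to 3.27% in macrophages, and both were highest in frail 1. The part of free RNA in cells with a single UMI was not tested. The amounts per cell were far apart. Only 6 cells held 10 or more of these UMIs, 5 of them in frail 1 (2479, 364, 254, 83 and 14 UMIs) and 1 in control 1 (17 UMIs), while the other 12 held 1 to 7.

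In the 3 cells with the most, all of Ltf, Camp and Ngp were present. The top cell alone held 268 Ltf, 1005 Camp and 1206 Ngp UMIs, which is 76.7% of all UMIs of these genes in the class, and 0 Il1b UMIs among its 19634. The 6 cells were also rich in calprotectin: S100a8 and S100a9 were 26.7% to 44.99% of their UMIs, against a median of 14.4% in the other 126 neutrophils. Il1b took a median of 0.0540% of their UMIs, against 1.15% in the rest. These are values of 6 cells from 2 animals, and they are given as a description. Summed by library, Ngp was at 6320 and 0 CPM in the frail pair and 179, 69.9 and 45.4 in control mice (log2 5.10), which did not pass in the comparison of groups below.

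**Figure D2:**
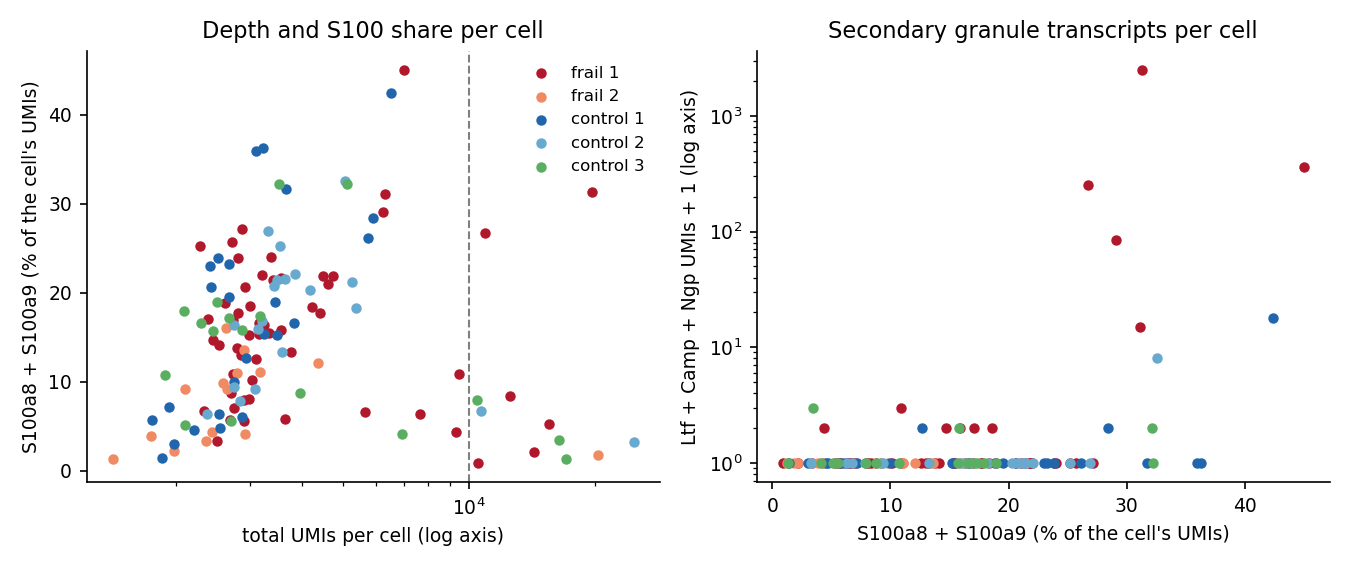
Each point is 1 neutrophil, coloured by library. The left panel plots the share of a cell's UMIs from S100a8 and S100a9 against its total UMIs (log axis), with the 10000-UMI line dashed, and the right panel plots Ltf, Camp and Ngp UMIs plus 1 (log axis) against that share. The cells with 10 or more granule UMIs all lie at 26.7% calprotectin or above, and most cells beyond 10000 UMIs lie under 10%.

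Ltf (chromosome 9, 111019271 to 111042767), Camp (chromosome 9, 109847379 to 109849617) and Ngp (chromosome 9, 110419747 to 110423012) lie within 1195389 bases of each other. All 3 were present together in 3 of the 18 cells with any of them, each from frail 1. For this reason the bases before their starts were searched for TTGCNNAA. It is the core of the sequence that C/EBP factors, the regulators of granulocyte maturation, are known to bind. In the 250 bases before the RefSeq start, on either strand, Ltf held 1 match and Ngp held 2, of which 1 lies in the stretch shown, and Camp held none. Of the 9 genes of the secondary granule list and Mmp8 that have such a window, 5 held a match (Ltf, Ngp, Lcn2, Fcnb and Mmp8), beside 9.56% of all 32851 windows. The stretches of Ltf (chr9:111019042-111019270) and Ngp (chr9:110419558-110419746), both from RefSeq on the plus strand of GRCm38.p6 and ending before the annotated gene, are shown because both genes were present in the 3 cells with the most granule UMIs, with the match in capitals (for Ltf, the complement of a match on the minus strand).
Ltf: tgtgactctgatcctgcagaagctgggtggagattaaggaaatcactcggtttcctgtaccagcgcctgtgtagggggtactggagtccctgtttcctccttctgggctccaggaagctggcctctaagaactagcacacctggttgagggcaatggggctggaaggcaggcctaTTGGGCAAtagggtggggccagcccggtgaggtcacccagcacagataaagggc
Ngp: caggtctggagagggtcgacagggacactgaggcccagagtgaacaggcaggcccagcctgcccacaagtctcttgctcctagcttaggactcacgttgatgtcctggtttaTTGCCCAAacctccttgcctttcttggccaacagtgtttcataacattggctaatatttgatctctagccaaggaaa
The Ltf match lies 75 bases and the Ngp match 138 bases before the RefSeq start. A match of letters is a description and not a binding site.

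Lcn2 and Wfdc21, also of the secondary granule list, and Mmp8, of the gelatinase granule list, were found in more of the cells. Lcn2 (chromosome 2, 32384633 to 32388252), which encodes an iron-trapping lipocalin, was found in 79.5% of neutrophils, at 3793 and 888 CPM in the frail pair and 2575, 1807 and 1442 in controls. Wfdc21, a small secreted protein with a whey acidic domain, was found in 81.1%, at 1981 and 550 CPM in the frail pair and 1730, 1278 and 1658 in controls. Mmp8, the neutrophil collagenase, was found in 56.8%, at 842 and 426 CPM in the frail pair and 1115, 1637 and 500 in controls. In each of these 3 genes frail 2 was the lowest of the 5 libraries and frail 1 was not. A single cell of frail 1, with 19634 UMIs, held 523 of the 1009 Lcn2 UMIs of that library.

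**Figure D3:**
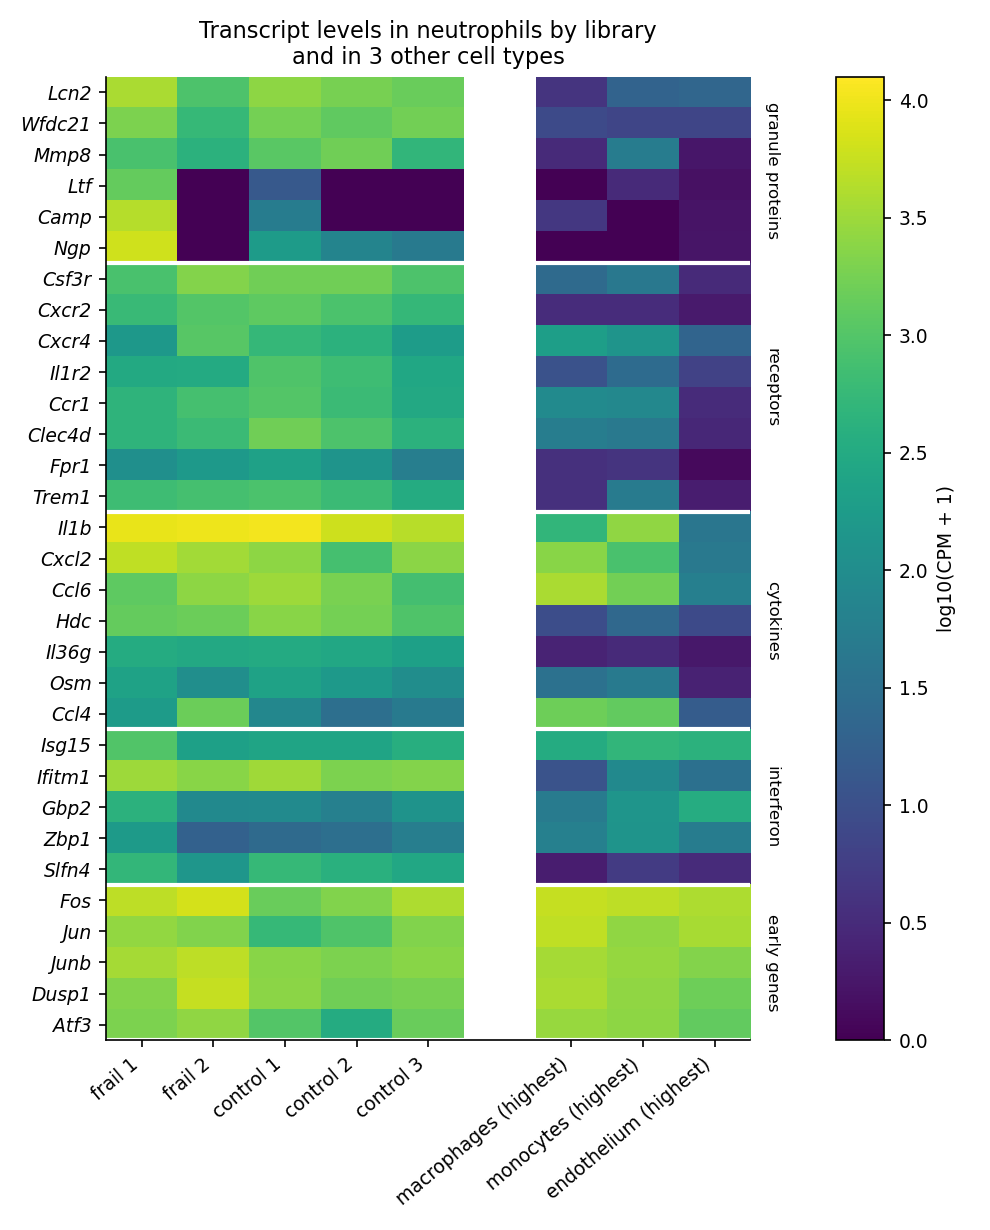
Colour gives log10(CPM + 1) of 31 transcripts in the neutrophils of each library, and in macrophages, monocytes and endothelial cells at their highest library. Il1b is the brightest row, Ltf, Camp, Ngp, Isg15, Gbp2 and Zbp1 are highest in frail 1.

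The receptors were found in most cells. Beside the rule genes, the chemokine receptor Ccr1 was found in 91.7% of neutrophils (462 and 781 CPM in frail libraries, and 999, 619 and 295 in controls), the C-type lectins Clec4d and Clec7a, which bind fungal sugars, in 90.2% and 93.2%, and the amplifier of inflammation Trem1 in 84.1%. Cxcr4 (chromosome 1, 128588199 to 128592293), the receptor by which aged neutrophils are called back to bone marrow, differed between the 2 frail libraries. Its level was 150 and 1083 CPM in frail 1 and 2, against 538, 429 and 182 in control 1 to 3, so that the frail libraries took both ends of the range and their counting intervals (107 to 205, and 828 to 1391 CPM) did not meet. Frail 1 was also lowest for Cxcr4 after cells above 10000 UMIs were left out.

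The chemokine Cxcl2, which draws further neutrophils, was found in 75.0% of cells. Its level was 5128 and 3461 CPM in the frail pair, against 2485, 769 and 2418 in controls. Without cells above 10000 UMIs it was 7443 and 3918 CPM in the frail pair and 2485, 1159 and 4389 in controls, so that frail 2 was then below control 3. The fitted change was 1.16 on the log2 scale (SE 0.57), and it did not pass (edgeR adjusted p = 0.998). Hdc, the enzyme that makes histamine, was found in 97.0% of neutrophils, at 1353 and 1527 CPM in the frail pair and 2383, 1767 and 931 in controls. Il36g, a cytokine of the interleukin 1 family, kept within 302 to 331 CPM in the frail pair and 216 to 320 in control mice. Il6 and Il10 had 0 UMIs in all neutrophils. Gdf15, the stress cytokine named in the title of the series, had 1 and 5 UMIs in the frail pair and 0, 0 and 1 in controls, found in 2.27% of neutrophils against 19.7% of macrophages, and no level can be compared at that depth. Its receptor gene Gfral had 0 UMIs.

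Interferon-induced transcripts were highest in frail 1. The list of 20 summed to 10590 CPM in frail 1 and 4757 in frail 2, against 8058, 6719 and 4996 in controls. Isg15, a ubiquitin-like antiviral protein, stood at 970 CPM in frail 1 with a counting interval of 855 to 1096, against 213 in frail 2 and 243, 250 and 375 in controls. Gbp2 and Zbp1 were highest in frail 1 as well. Of 11 members tested none passed between frail and control mice, and the list summed highest in frail 1 in other cell types too, at 3710 CPM in macrophages, 5681 in monocytes and 5993 in endothelial cells of that library, against 1931 to 2912, 2530 to 3164 and 3025 to 5513 in the other 4 libraries. Whether free RNA has a part in it was not tested.

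Neutrophils of frail and control mice were then compared gene by gene, with UMIs summed per library. Over 1438 genes tested, 2 passed (edgeR quasi-likelihood test, adjusted p under 0.05), or 0.139%, both higher in frail mice: Tagln and Acta2, which encode transgelin and the alpha actin of smooth muscle. Both are known from smooth muscle. In all 49 genes had an unadjusted p under 0.05, and DESeq2 called 7 genes (0.487%): these 2 and Myl9, Myh11, Csrp2 and Ccl4 as higher (0.417%) and Acta1 as lower (0.0695%). Ccl4 UMIs lay in 6 cells of frail 1 and 4 of frail 2. A single cell of frail 1, with 2493 UMIs, held 37 of 47, and 1 of frail 2, with 20345 UMIs, held 34 of 84. Single cells also held 69 of 92 Myl9 and 50 of 69 Myh11 UMIs in frail 1, and 105 of 106 of each in frail 2.

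Tagln reached 1000 CPM in frail 1 and 5805 in frail 2, against 51.2, 59.9 and 90.8 in the controls (log2 5.50, SE 0.76; edgeR adjusted p = 0.0342). Acta2 reached 1086 and 5734 CPM in the frail pair, against 115, 79.9 and 125 in control mice (log2 4.86, SE 0.70; edgeR adjusted p = 0.0342). Nearly all of it came from 2 cells. A single cell of frail 2, with 20345 UMIs, held all 327 Tagln UMIs and 321 of the 323 Acta2 UMIs of that library, and a single cell of frail 1, with 14301 UMIs, held 239 of 266 and 241 of 289. With the 12 neutrophils above 10000 UMIs left out, an alternative chosen after seeing the data, Tagln was at 137 and 0 CPM in the frail pair and 51.2, 46.4 and 136 in control mice, and no gene passed in the neutrophils (44 at an unadjusted p under 0.05). With the highest doublet scores removed, Acta2 had a log2 change of 0.43. In other settings the calls were lost while the changes stayed: with the mitochondrial limit at 5% they were 5.77 for Tagln and 4.98 for Acta2, and without any 1 of control 1, control 2 or control 3 neither gene passed, although the changes ran between 3.98 and 6.17 for Tagln and between 3.44 and 5.50 for Acta2 as each of the 5 libraries was left out. Without frail 1 the count was 11 and without frail 2 it was 8, all higher in the remaining frail library. Each of these fits has 1 frail library, which is assumed to vary like the controls.

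**Figure D4:**
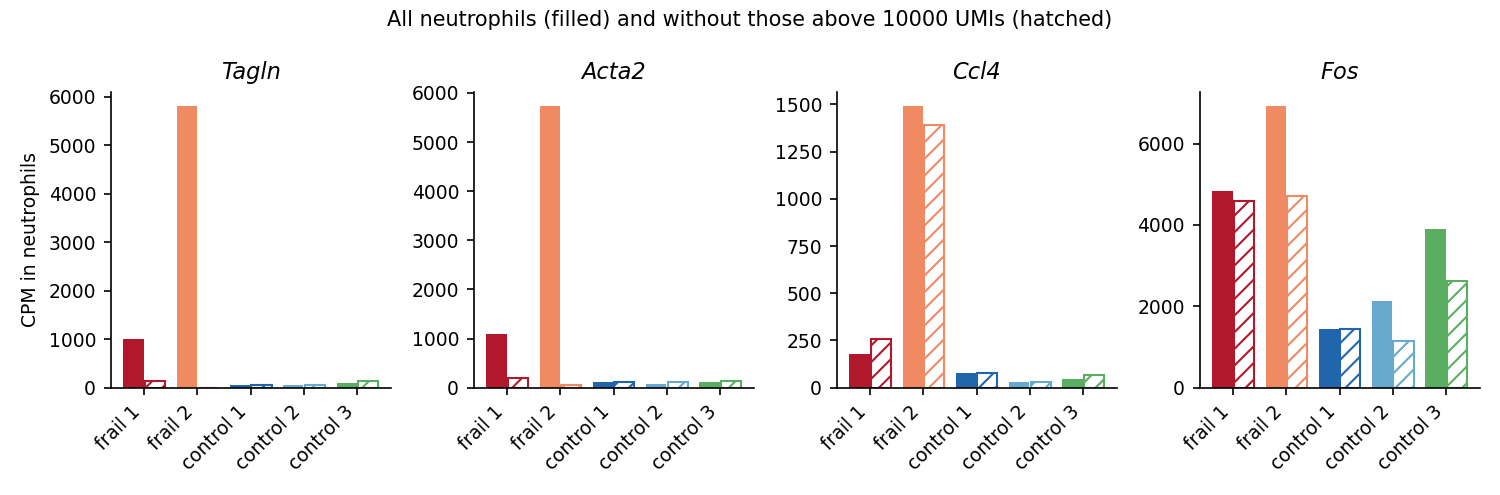
CPM of 4 genes in the neutrophils of each library, with filled bars for all neutrophils and hatched bars without those above 10000 UMIs. Without these cells Tagln is at 137 and 0 in the frail pair and Acta2 at 203 and 55.6, while Fos stays above all controls in both frail libraries.

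The 12 cells above 10000 UMIs held 31.1% of all neutrophil UMIs. They were spread as 6 and 1 in the frail pair and as 0, 2 and 3 in controls. Their median was 14902.5 UMIs and 3661.5 genes, against 2926 UMIs and 1101 genes in the other 120, and calprotectin was a median of 4.35% of their UMIs against 15.8%. Of the 12, 5 held over 200 UMIs of 6 fibro-adipogenic markers, 2 over 200 of the smooth muscle genes Acta2, Tagln, Myl9 and Myh11, 1 over 200 of class II antigen-presentation genes, and 2 over 200 of Ltf, Camp and Ngp, with 2 cells in none of these groups. Scrublet, which scores likeness to simulated doublets, had 4 of the 12 among its removed barcodes. The largest single cell made up 36.1% of the neutrophil UMIs of frail 2, against 7.38% in frail 1 and 8.33% to 24.7% in controls.

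Both frail libraries stood below all controls in 5.98% of the genes tested in neutrophils. Among these, Ckm, Acta1 and Mylpf were of those with the smallest p. They are genes of the myofibre (edgeR adjusted p = 0.610 each). Acta1 stood at 33.8 and 17.8 CPM in the frail pair and 243, 1248 and 148 in control mice. A single cell of control 2, with 5363 UMIs, held 79 of the 125 Acta1 UMIs and 23 of the 43 Ckm UMIs of that library. The sums of the 6 myofibre markers given above did not overlap between frail and control neutrophils, and nor did they in endothelial cells, at 83.4 and 292 in the frail pair and 1599, 3503 and 1817 in control mice. The part of free myofibre RNA in these differences was not tested. The kinase Wnk1 and the stromal Pi16, which did not pass either, had log2 changes of −1.65 (SE 0.51) and −1.64 (SE 0.59).

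No early response gene passed. Of the 16 immediate early and heat shock genes, all tested, 15 had a positive fold change, with a median of 0.60 on the log2 scale against −0.04 over all genes tested. In 8 of the 16 (Fos, Jun, Junb, Ier2, Ier3, Btg2, Zfp36 and Hspa1a) both frail libraries stood above all controls, which 7.51% of the genes tested did, while 5.98% had both below. Fos, an AP-1 subunit, stood at 4835 and 6923 CPM in the frail pair and 1448, 2137 and 3894 in control mice (log2 1.17, SE 0.52; edgeR adjusted p = 0.998). Jun, its partner, stood at 2684 and 2130 in the frail pair and 564, 948 and 2089 in control mice. Control 3 was the closest of the controls to the frail libraries in both. These genes are known to respond to tissue dissociation, and the list summed to 28581 and 35065 CPM in frail macrophages and 21333, 27077 and 32586 in control macrophages, whereas in endothelial cells it summed to 18375 and 21809 CPM in the frail pair, against 24398, 26527 and 23609 in controls. The part of sample handling was not tested.

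The values of ribosomal protein genes changed when the cells above 10000 UMIs were left out. All 15 of the list had a negative fold change (median log2 −0.70), and none passed. Control 3 was highest, with a sum of 18189 CPM, against 7632 and 6745 in the frail pair and 4599 and 10054 in control 1 and 2. Without these cells 12 could be tested, 9 had a positive change and the median was 0.20, so that the direction of the list was not kept. Without control 3 the direction was also mixed, with 7 of 15 positive.

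The remaining lists had small median shifts, with no gene passing in edgeR. Single members ran from −0.26 to 5.10 on the log2 scale among secondary granule genes. They ran from −0.27 to 3.87 among secreted factors, −0.26 to 1.63 among interferon genes and −1.03 to 0.52 among receptors. The median log2 change was −0.17 over 17 chemoattractant and cytokine receptors, −0.01 over 7 adhesion genes, 0.32 over 8 secreted factors, 0.15 over 11 interferon genes, 0.13 over 5 NADPH oxidase subunits, 0.16 over 11 transcription factors, −0.04 over 6 gelatinase granule and 5 glycolysis genes, and 0.31 over 5 secondary granule genes. Tested against macrophages of the same libraries, the frail effect differed in 0 of 1431 genes (limma-trend, adjusted p under 0.05; 38 at an unadjusted p under 0.05). Without frail 1 this count was 18 and without frail 2 it was 1, again with a single frail library assumed to vary like the controls.

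What sets these neutrophils apart from macrophages was examined next, within the same 5 libraries and with the rule genes left out of the test. The cells had been chosen by genes that accompany many of those tested, so that the comparison describes what the cells hold and is no independent evidence of what they are. Of 8614 genes tested, 2406 passed (27.9%), 1052 higher (12.2%) and 1354 lower (15.7%) in neutrophils than in 2045 macrophages. With neutrophils above 10000 UMIs left out, 3160 passed, 974 higher and 2186 lower.

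The genes most above macrophages were of granules, antimicrobial defence and protease control. A gene near 0 in either cell set entered the test only through its UMIs in the other, which fixed its direction in advance. Lcn2, near 0 in macrophages, stood at 888 to 3793 CPM in neutrophils and 0.352 to 3.13 in macrophages (log2 11.15, SE 0.45). Il36g, Wfdc21, the skin aspartic protease Asprv1 and Mmp8 followed, with log2 changes of 10.08, 10.00, 9.88 and 9.64. The receptors Trem3 and Trem1, the protease inhibitor Slpi, the haemoglobin-binding haptoglobin Hp, the stefins Stfa2l1 and Cstdc4, the peptidoglycan sensor Pglyrp1, Hdc and the Schlafen gene Slfn4 were next, at log2 8.91 to 9.48. All of these were found in the neutrophils of each library. Slpi, for one, was at 2290 and 2361 CPM in the frail pair and 3510, 1837 and 1090 in control mice, against 0 to 13.04 in macrophages.

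Among the genes lowest against macrophages were Folr2, the complement receptor C3ar1, the lectins Fcna and Cd209b, and Mucl1, all at 0 UMIs in neutrophils. Set against the floor of 3 UMIs over the class, they were at least 137-fold, 64.6-fold, 49.8-fold, 32.6-fold and 41.4-fold lower in neutrophils.

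By list, all 4 of the 10 secondary granule genes that were tested were higher than in macrophages (median log2 7.13, against −0.35 over all genes tested), as were 6 of 7 gelatinase granule genes (median 5.34). The filter on low counts kept a gene counted in either cell set, here and against monocytes. A gene near 0 in the other set thus entered the test only through its neutrophil UMIs, and its direction was fixed in advance. The gelatinase list includes the formyl peptide receptors Fpr1 (7.60) and Fpr2 (6.06). Beside these list counts, 12.2% of all genes tested were higher and 15.7% lower in neutrophils. Of 16 other receptors, 11 were higher, led by Trem1 (8.91) and Clec4e (5.33), and 1, the IgG receptor Fcgr3 (−0.88), was lower. The secreted factors, listed with the enzymes Hdc and Ptgs2, split: 7 of 14 were higher, among them Hdc, Il1b (4.94), the prostaglandin synthase Ptgs2 (3.96), Csf1 (3.66) and Osm (2.61), and 5 were lower, among them Il10 at 0 UMIs, Cxcl10 (−4.20), Ccl3 (−2.86) and Tnf (−1.19). The glucose transporters Slc2a3 (5.10) and Slc2a1 (2.77) led the 6 of 12 glycolysis and hypoxia genes that were higher. Interferon genes were higher in 11 of 20 and lower in none. All 15 ribosomal protein genes were lower, with a median of −1.32.

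**Figure D5:**
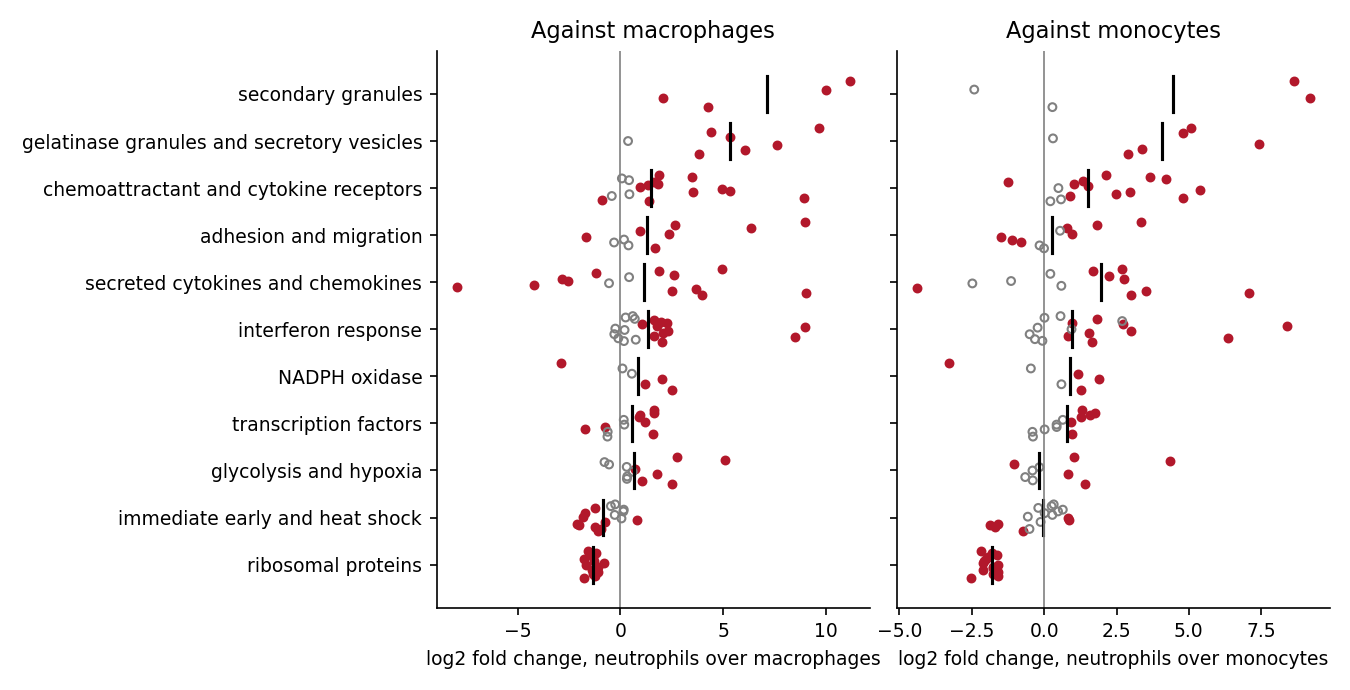
Each point is 1 gene of a list, at its log2 fold change of neutrophils over macrophages (left) and over monocytes (right), filled red where the edgeR adjusted p is under 0.05 and open where it is not, and the black bar is the median of the list. The highest point of each panel is a secondary granule gene, while another of that list, Chil3, lies at −2.42 against monocytes without passing, and ribosomal protein genes lie to the left of 0 in both panels; the point near −8 is Il10, which had 0 neutrophil UMIs, so that its size is not a measurement.

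The second comparison was with 259 cells chosen as monocytes by thresholds on a few genes. Dendritic cell markers summed to 21495 and 29841 CPM in the frail pair of this set and to 25479, 24930 and 19271 in controls, against 2374 to 4574 for monocyte markers. The same list, which includes the class II genes Cd74 and H2-Ab1, summed to 16302 to 25224 CPM in macrophages. The set may hold dendritic cells as well, which this sum does not settle. Values against monocytes below are against this set. Of 4583 genes tested, 1714 passed (37.4%), 810 higher (17.7%) and 904 lower (19.7%) in neutrophils, and by library totals alone 629 were higher and 1167 lower. That scaling moved the median log2 change of all genes to −0.34 (main −0.13), and against macrophages to −0.51. Stfa2l1 and Cstdc4, inhibitors of cysteine proteases, and Asprv1 had 0 UMIs in monocytes, and were at least 901-fold, 602-fold and 205-fold higher in neutrophils against a floor of 3 UMIs over the monocytes. The other 5 of the first 8 were Wfdc21 (log2 9.19), Il36g (8.98), Lcn2 (8.63), Slfn4 (8.39) and the class I gene H2-Q10 (7.16). Stfa2l1 and Cstdc4 belong to families of near-identical copies, so their counts are uncertain.

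Below monocytes were Ms4a4c, the lectin Clec4b1 and Sdf2l1, each at 0 UMIs in neutrophils and at least 36.8-fold, 29.9-fold and 20.8-fold lower, with the lectin Cd209a (log2 −7.04) and the peptide-loading H2-DMb1 (−6.05), which antigen-presenting cells such as dendritic cells are known to express. Receptors were higher in 11 of 15 and lower in 1 (the leukotriene receptor Ltb4r1), with Clec4d (5.39), Trem1 (4.79) and C5ar1 (4.20) among the higher ones. Over all genes tested, 17.7% were higher and 19.7% lower. C5ar1, the complement C5a receptor, did not pass against macrophages (log2 0.07, SE 0.30; edgeR adjusted p = 0.878). Il1b was 2.70 and Cxcl2 2.74 above monocytes, whereas against macrophages Cxcl2 did not pass (0.42). The oxidase subunit Cybb was lower than in both, at −2.89 against macrophages and −3.28 against monocytes.

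Which genes varied most from cell to cell depended on whether cells above 10000 UMIs were kept. Over all 132, the variance between cells relative to counting error was highest for Ngp (212 times) and Camp (194 times), ahead of S100a9 (185 times) and S100a8 (178 times). Over the 120 neutrophils with at most 10000 UMIs, the variance between cells was 99.6 times that of counting error for S100a8 and 96.2 times for S100a9, then 87.5 for Ngp, 63.8 for Cxcl2 and 52.5 for Retnlg. Il1b reached a ratio of 11.9. In frail 1 the S100a8 and S100a9 share of a cell had a median of 15.5% and ran between 0.896% and 44.99%, and frail 2 had the lowest median, 9.19%, against 15.7% to 17.6% in controls. S100a8 and S100a9 varied together (Spearman's rho 0.93 over 132 cells, and 0.86 to 0.94 within libraries), and S100a8 with Lcn2 less so (rho 0.54, and 0.43 to 0.70 within libraries). Il1b and Cxcl2 had a rho of 0.46 over all cells, but −0.21 to 0.80 within libraries. Cells of 1 library share their depth and free RNA, so these values are descriptions.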

How the data were processed

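The authors deposited UMI counts per gene and barcode for 5 libraries. The submitters' processing notes name Cell Ranger 7.0.0, Seurat 4.1.2 and the genome build GRCm38, with no role for each. A barcode was kept, and is called a cell, where 200 or more genes were detected and mitochondrial UMIs were no more than 10%. Macrophages, monocytes and endothelial cells were set by thresholds on a few genes each. The members and gene lists were chosen with earlier results of these data known. UMIs were summed per library and cell set and tested with edgeR 4.0.16 (quasi-likelihood, TMM, Benjamini-Hochberg adjustment, threshold 0.05), with library as a block between cell sets, in which rule genes were not tested. limma 3.58.1 tested the difference of the frail effect, and DESeq2 1.42.0 was an alternative. Scripts were tested on simulated data. Scrublet (scanpy 1.11.5) scored doublets, and none were removed in the main results. Genes named are the members of the lists, the 10 highest transcripts, and in each comparison those with the largest changes past the threshold (up to 15 higher and 5 lower against macrophages, 8 and 5 against monocytes) at an average log2 CPM of at least 6. Between frail and control mice, named genes also had both frail libraries on one side of all controls. Where fewer than 5 passed, as there, the 5 smallest p in each direction under the same conditions were named. Intervals (95%, Wilson for shares and exact Poisson for levels) and the floor of 3 counts cover counting error only. A few genes that meet this rule are not reported here.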

Additional observations from a re-analysis of the deposited data

How the results depend on the processing

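Results rest on 2 frail and 3 control animals and on 15 to 55 neutrophils per library, so that frail 1 holds most frail UMIs and 1 cell can set a library's level. The difference in neutrophil share ran between −0.0682 and 0.377 percentage points as each library was left out, that among Ptprc-positive cells between −0.187 and 9.73, that in the granule share between −11.5 and 8.45, that in median UMIs between −408 and 116, and that in median genes between −56.5 and 35.5. The granule difference was 1.25 points after thinning to 500 UMIs and 0.494 with at least 2 granule UMIs. The difference in median genes was 1.25 with the S100 threshold at 20 UMIs and 37.2 with the mitochondrial limit at 5%. The count of genes called between frail and control neutrophils was 0 at that limit, 0 without the highest Scrublet scores, 0 without neutrophils above 10000 UMIs (chosen after seeing the data), 7 by DESeq2, 39 with no filter on low counts, and 0 to 11 as each library was left out. The count for the difference of the frail effect ran between 0 and 18. Frail and control libraries share only replicate numbers, which no label ties to an animal or day, and with the replicate block 0 genes passed. For these moves the cause was not tested. Against macrophages 1855 to 2272 genes and against monocytes 1187 to 1708 passed as each library was left out, and 0 of the genes named there for the largest changes lost its call or direction under the alternatives run; list members were not followed one by one.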
